A study of Pyrus pyrifolia with 12 samples.

Results

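Polyphenol oxidase, also called catechol oxidase, is the plant enzyme of tissue browning. The genes described here are those of the deposited pear table whose nearest Swiss-Prot protein carries a recommended name that begins with one of these 2 names, and 10 of the 43732 genes did. Of these 10 genes, 7 had reads in fruit skin, 6 had enough reads to be tested, and 3 had 0 reads in all 12 libraries. Skin of mature, untreated fruit of Pyrus pyrifolia was sequenced from 4 varieties with 3 libraries each, in a study of russet, the brown corky skin of some pears. Akibae was taken 120 days after full bloom, Nijisseiki 135 days, and SuCui NO.1 and CuiYu both 105 days, so that variety and harvest day can be told apart only between the last pair. All groups came from orchards in 1 place. The labels give neither the skin type of a variety nor how many fruits or trees stand behind a replicate.

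Polyphenol oxidase is a copper enzyme that oxidises diphenols, such as the chlorogenic acid and flavan-3-ols of pome fruit, to quinones, which go on to form brown pigments. The protein is made as a precursor, imported into plastids and carried into the thylakoid lumen, while most of its phenol substrates lie in the vacuole. Enzyme and substrate meet when cells are cut, bruised or broken down. A transcript level is therefore a level of messenger RNA and not of browning. The family is known for repeated copies in plants of the rose family.

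Of the 10 genes, 8 lay on chromosome 5 between 24643287 and 24745625, a stretch of 102 kb, by the coordinates the authors deposited. Their genome build is not given here, as no source used states it. In order along the chromosome they were gene354 (24643287 to 24644004), gene353 (24652283 to 24654309), gene352 (24659758 to 24667465), gene351 (24669950 to 24671054), a locus from 24671291 to 24674885, gene350 (24681932 to 24683961), gene349 (24700560 to 24702598) and gene345 (24744186 to 24745625). The unnamed locus has the number 1237 among the identifiers that the table gives a prefix other than "gene", and is called locus 1237 here. The gaps between neighbouring copies ran from 0.236 kb, between gene351 and locus 1237, to 41.6 kb, between gene349 and gene345. Of the copies, 6 stand on the plus strand, and gene352 and gene351 stand on the minus strand. No gene of the table overlapped a copy. The other 2 genes were gene10373 on chromosome 8 (16383427 to 16385257), named polyphenol oxidase II, and gene16100 on chromosome 11 (19181289 to 19199797), both on the minus strand.

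The copies differed in what the table records of their protein. Gene345, gene349, gene350 and gene353 carried all 3 Pfam domains of the enzyme: the central tyrosinase domain that holds the copper, the middle domain and a C-terminal domain. Gene354 carried 1 domain, the C-terminal one, and its length in the table was 516 bases. The remaining 5 genes carried 0 domains. The lengths of gene349 (2039 bases) and gene345 (1440 bases) equalled their span on the chromosome. Gene353 and gene350 were nearly alike in build, at 1805 and 1808 bases of length, each 222 bases shorter than its span. Reads from near-identical copies can be counted for one, the other or neither, and no source used here says how the authors treated such reads, so that the level of 1 copy is uncertain to that extent.

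The libraries held between 11981445 and 15136559 counts. Levels are given as CPM, read counts scaled to a common library size, or as CPM per kilobase of gene length where genes are compared with each other. Adjusted p values are from edgeR's quasi-likelihood test after Benjamini-Hochberg adjustment across the 26307 genes tested, and the threshold was 0.05. Nijisseiki replicate 1 stood apart from replicates 2 and 3, with 146 and 134 genes at 10 CPM or more in one library and at 0.5 CPM or less in the other, against 6 to 63 genes for the other pairs within a variety. Replicates are the biological replicates of the labels. A p value sets the difference between varieties against the spread between replicates, estimated over all 12 libraries.

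One copy supplied most of the reads. Gene349 had a mean of 927 CPM per kilobase over the 12 libraries, gene354 168, gene345 15.6, gene353 1.18, gene350 1.07, locus 1237 0.489 and gene352 0.0764. The 3 copies with all domains and fewer reads thus lay far below gene349 at the same length scale. Gene351, gene10373 and gene16100 had 0 reads, and 3 reads over the 3 libraries of a variety, taken as the limit that a count of 0 allows, correspond to 0.0728 to 0.0772 CPM. Neither this limit nor the counting intervals of later paragraphs take in any error besides counting. A count of 0 does not tell a silent gene from a copy that a variety lacks or whose sequence is too far from the reference.

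**Figure D1:**
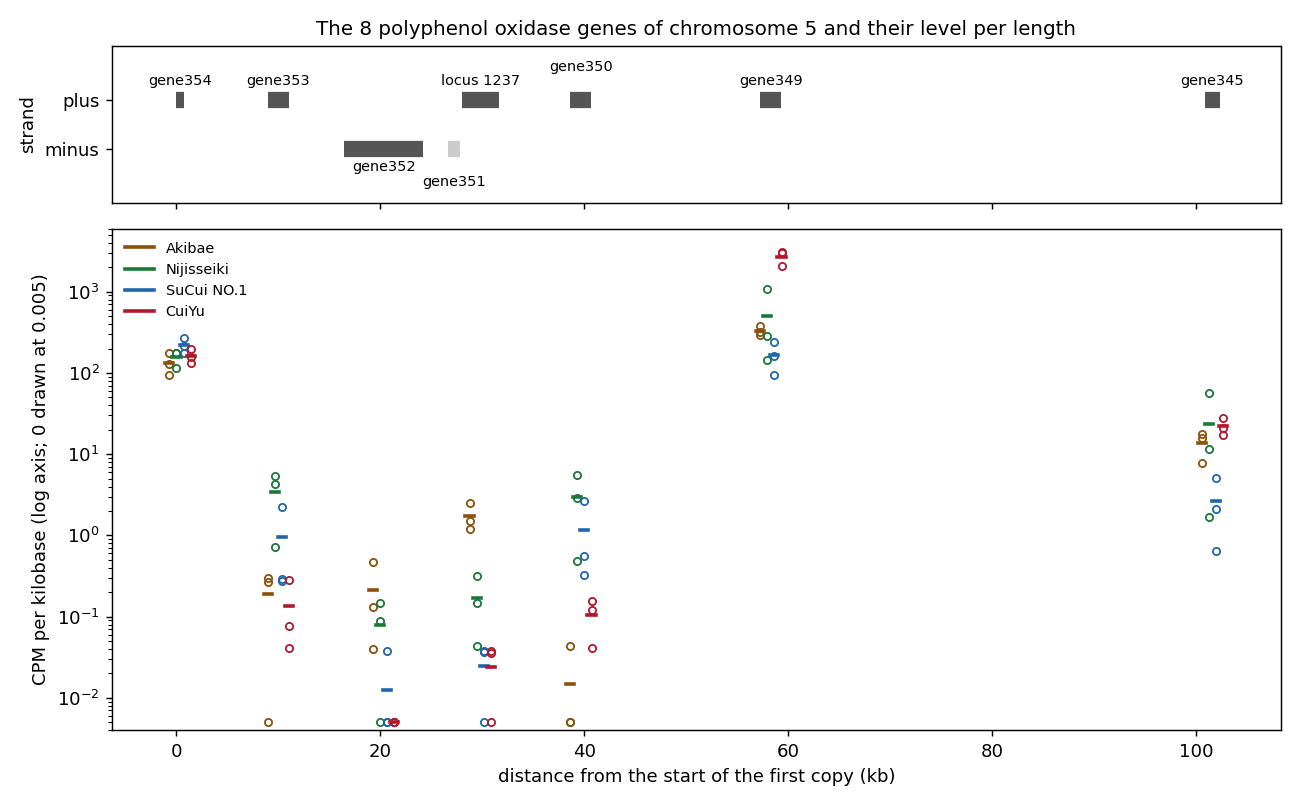
Upper panel, position and strand of the 8 copies on chromosome 5 as distance in kb from the start of the first copy, dark where reads were counted and pale where there were none. Lower panel, CPM per kilobase on a log axis for each library (circles) and the mean of a variety (bars), with 0 drawn at 0.005: gene349 and gene354 stand highest, and gene349 is highest in CuiYu.

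Among the 4 varieties, 4 of the 6 tested copies differed past the threshold, namely gene349, gene353, gene350 and locus 1237, where 28.3% of all genes tested did. Locus 1237 passed the filter on low counts only through its Akibae libraries, and gene353 and gene350 would not have passed it without those of Nijisseiki, so the count of 4 is a description. The copies did not share a pattern. Gene349 was highest in CuiYu, gene353 and gene350 were highest on average in Nijisseiki, and locus 1237 was highest in Akibae. Gene354 and gene345 did not pass.

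Gene349, the main copy, was far higher in CuiYu than elsewhere. In Akibae replicates 1, 2 and 3 it reached 606, 644 and 766 CPM. In Nijisseiki it was 581, 2187 and 295 CPM, in CuiYu 6276, 6092 and 4217 CPM, and in SuCui NO.1 489.6, 327 and 192 CPM. All 3 CuiYu libraries lay above all 9 others, the nearest being Nijisseiki replicate 2. In CuiYu the gene took 0.419% to 0.6% of all reads and ranked 10th to 17th of all genes per length, against ranks 168 to 225 in Akibae, 31 to 650 in Nijisseiki and 351 to 1167 in SuCui NO.1.

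The means of gene349 were 5528 ± 1139 CPM in CuiYu, 1021 ± 1020.1 in Nijisseiki, 672 ± 83.7 in Akibae and 336 ± 149 in SuCui NO.1 (SD, n = 3 each), with an adjusted p of 0.0027 among the varieties. Against SuCui NO.1, which was harvested on the same day after bloom, the level in CuiYu was 16.4-fold higher (log2 fold change of SuCui NO.1 over CuiYu -4.04 ± 0.69 SE, adjusted p = 0.0032). This call held without any 1 of the 12 libraries, at an adjusted p of 0.00036 to 0.014. Against Akibae CuiYu was 8.23-fold higher (log2 -3.04 ± 0.66, adjusted p = 0.011, and 0.051 without Akibae replicate 1). Against Nijisseiki it was 5.41-fold higher (log2 -2.44 ± 0.64, adjusted p = 0.027). That last call ended without Nijisseiki replicate 1 (0.072) or 3 (0.056), without CuiYu replicate 1 (0.075) or 2 (0.078), and with the 6 libraries of the pair alone (0.074), while without Nijisseiki replicate 2 the log2 difference was -3.66 (0.002). The summed level of skin epidermis markers, 187 to 215 CPM, was highest in CuiYu as well, against 11.6 to 122 CPM in the other varieties, and its part in the level of gene349 was not tested.

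The pairs among the other varieties did not pass for gene349. Akibae stood above SuCui NO.1 without overlap, at a log2 difference of 1.0 ± 0.61 that did not pass (adjusted p = 0.31). Akibae against Nijisseiki gave -0.60 ± 0.61 (adjusted p = 0.74), and 0.62 without Nijisseiki replicate 2. Nijisseiki against SuCui NO.1 gave 1.60 ± 0.62 (adjusted p = 0.12). This pair passed with DESeq2 (0.044) and without Nijisseiki replicate 3 (2.04, adjusted p = 0.046), while without Nijisseiki replicate 2 the log2 difference was 0.38 (0.66). Within Nijisseiki the highest library held 7.41 times the lowest, against 1.26 times in Akibae, 1.49 in CuiYu and 2.54 in SuCui NO.1.

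**Figure D2:**
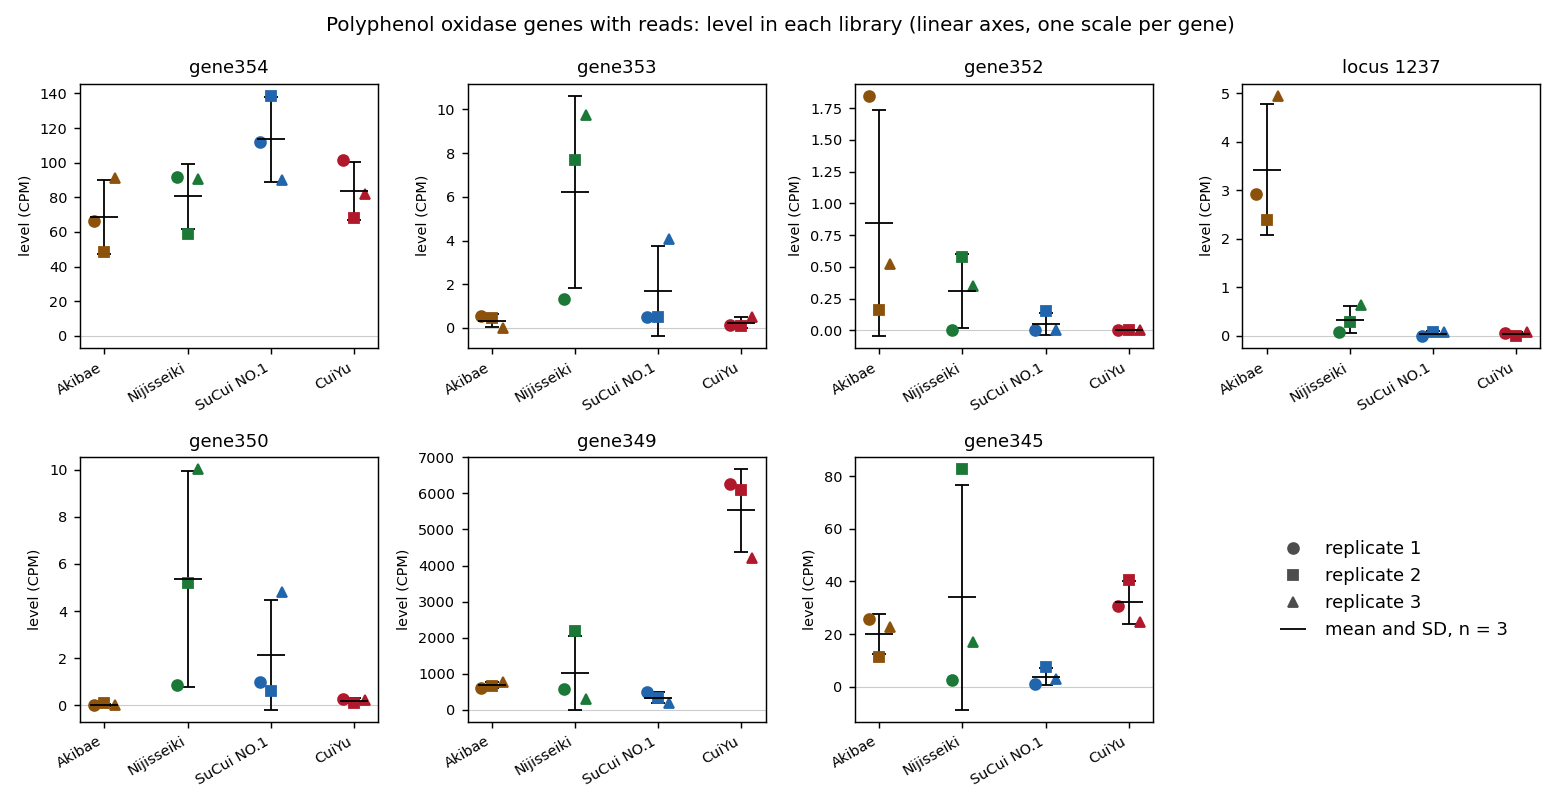
Level in CPM (linear axes that differ between panels) of the 7 copies with reads in each library of the 4 varieties, with the mean and SD (n = 3). Gene349 lies at 4217 to 6276 CPM in CuiYu, and locus 1237 at 2.39 to 4.95 CPM in Akibae, in both cases above all other libraries.

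Gene345, the last copy of the cluster and the third in level, had its lowest mean in SuCui NO.1. It stood at 25.8, 11.3 and 22.5 CPM in Akibae replicates 1, 2 and 3, and at 2.44, 82.7 and 16.9 CPM in those of Nijisseiki. In CuiYu it stood at 30.7, 40.7 and 24.7 CPM, and in SuCui NO.1 at 0.921, 7.43 and 3.01 CPM. The SuCui NO.1 libraries lay below all libraries of Akibae and CuiYu but overlapped Nijisseiki, whose replicate 2 was the highest of the 12 for gene345, as it was the highest outside CuiYu for gene349.

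The test among the varieties did not pass for gene345 (adjusted p = 0.13, and 0.023 without Nijisseiki replicate 1). SuCui NO.1 was lower than CuiYu by a log2 difference of -3.07 ± 1.03 (adjusted p = 0.064), which passed with DESeq2 (0.0062), with the 6 libraries of the pair alone (0.024), and without Nijisseiki replicate 1 (0.016) or 2 (0.027), but did not pass without any 1 of the other 10 libraries. With 1 library left out the difference ran from -4.0, without SuCui NO.1 replicate 2, to -2.61, at an adjusted p of 0.016 to 0.16. Akibae against SuCui NO.1 gave 2.38 ± 1.01 (adjusted p = 0.14, 0.046 with DESeq2, and 0.043 to 0.31 with 1 library left out, passing only without Nijisseiki replicate 1). Nijisseiki against SuCui NO.1 gave 3.16 ± 1.04 (adjusted p = 0.073 and 0.0059 with DESeq2). It passed without Nijisseiki replicate 1 (0.011) and fell to 1.35 without Nijisseiki replicate 2 (0.38). Akibae against CuiYu, past the threshold for gene349, gave -0.69 ± 0.95 for gene345 (adjusted p = 0.68), and the difference between these copies was not tested.

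Gene354, the short copy with only the C-terminal domain, had the smallest ratio of highest to lowest library of the 7 copies with reads. In Akibae replicates 1, 2 and 3 it reached 66.4, 48.6 and 91.2 CPM, and in Nijisseiki 91.7, 59.1 and 90.7 CPM. In CuiYu it was 101, 68.0 and 82.0 CPM, and in SuCui NO.1 112, 139 and 89.9 CPM. Each variety overlapped each other one. Its 6 pairwise log2 differences ran from -0.72 ± 0.27 (Akibae against SuCui NO.1, adjusted p = 0.099; leaving out Akibae replicate 3 gave 0.046) to 0.44 ± 0.27 (SuCui NO.1 against CuiYu, adjusted p = 0.29), and the test among the varieties gave an adjusted p of 0.20. Over the 12 libraries it spanned 48.6 to 139 CPM, where gene349 spanned 192 to 6276 CPM.

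**Figure D3:**
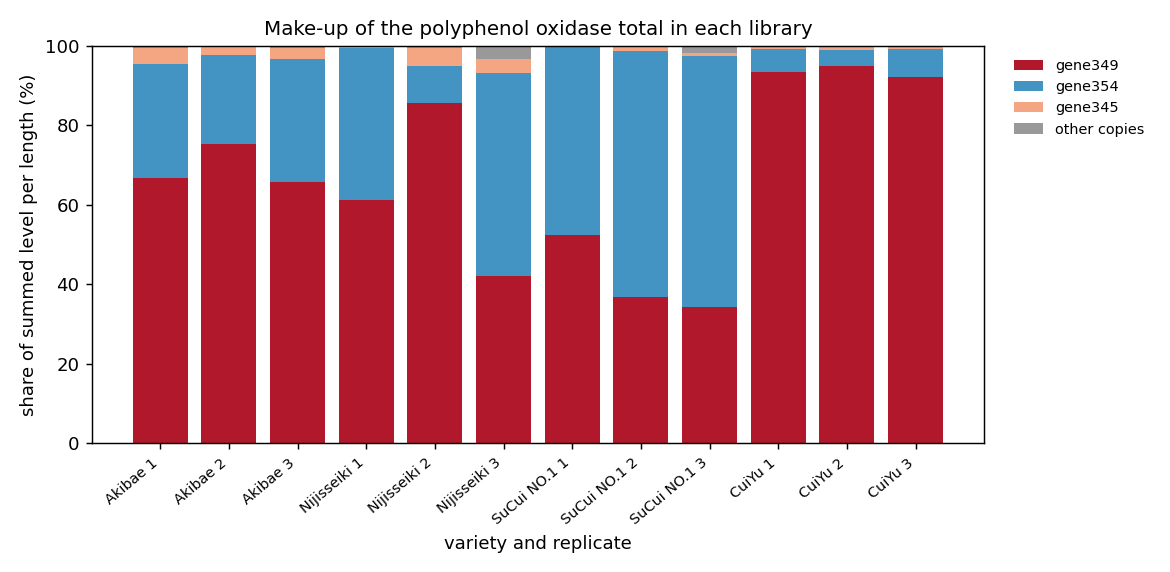
Share in percent of the summed CPM per kilobase of all polyphenol oxidase genes that gene349, gene354, gene345 and the other copies together held in each library. Gene349 holds 92.1% to 94.9% in CuiYu and 34.2% to 52.3% in SuCui NO.1, where gene354 holds 47.3% to 63.2%.

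The make-up of the family restates these levels as shares. Per length, gene349 held 92.1% to 94.9% of the summed level in CuiYu, 65.8% to 75.3% in Akibae, 42.1% to 85.7% in Nijisseiki and 34.2% to 52.3% in SuCui NO.1. The summed level itself was 2245 to 3296 CPM per kilobase in CuiYu against 419 to 571 in Akibae, 344 to 1252 in Nijisseiki and 276 to 459 in SuCui NO.1. Gene354 made up 47.3% to 63.2% of that sum in SuCui NO.1 and 4.18% to 7.08% in CuiYu, a pair in which its own level did not differ past the threshold. These shares rest on the lengths given in the table. By reads without division by length, gene349 held 65.4% to 81.05% in SuCui NO.1 and gene354 18.5% to 30.5%. The 7 copies with reads kept the same order of mean level over the 12 libraries in undivided CPM and in deposited FPKM.

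Gene353 and gene350, both with all domains, were low copies with reads mainly in Nijisseiki and in 1 library of SuCui NO.1. In Akibae replicates 1, 2 and 3 gene353 had 7, 6 and 0 reads, and in Nijisseiki it had 15, 106 and 139. It had 2, 1 and 7 in CuiYu and 6, 7 and 57 in SuCui NO.1. Gene350 had 0, 1 and 0 reads in Akibae and 10, 72 and 143 in Nijisseiki. It had 4, 1 and 3 in CuiYu and 12, 8 and 67 in SuCui NO.1. For both copies Nijisseiki replicates 2 and 3 and SuCui NO.1 replicate 3 were the 3 highest of the 12 libraries, and Nijisseiki replicate 1 was lower than its fellows. Reads of these 2 copies may not be separable.

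The mean level of gene353 was 6.23 ± 4.39 CPM in Nijisseiki, 1.70 ± 2.07 in SuCui NO.1, 0.339 ± 0.295 in Akibae and 0.243 ± 0.238 in CuiYu (SD, n = 3 each, adjusted p = 0.028 among the varieties). The test among the varieties was lost without Akibae replicate 1 (0.050) or 2 (0.053), Nijisseiki replicate 2 (0.064) or 3 (0.082), or CuiYu replicate 1 (0.070) or 2 (0.068). Nijisseiki was higher than CuiYu by 4.63 ± 1.26 on the log2 scale (adjusted p = 0.031), a call that ended at 0.055 to 0.12 without Nijisseiki replicate 2 or 3 or any 1 of the CuiYu libraries. Nijisseiki stood above Akibae without overlap, but the log2 difference of Akibae against Nijisseiki, -4.17 ± 1.22, did not pass (adjusted p = 0.12, and 0.0085 with DESeq2). Gene353 would not have passed the filter on low counts without the Nijisseiki libraries, where its mean was highest, so its calls are a description.

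Gene350 had 1 read in all of Akibae. Its mean was 0.0266 ± 0.0461 CPM there, 0.192 ± 0.105 in CuiYu, 2.14 ± 2.32 in SuCui NO.1 and 5.36 ± 4.57 in Nijisseiki (SD, n = 3 each, adjusted p = 0.0058 among the varieties, and past the threshold without any 1 library). By pooled reads, the ratio to the 1 read of Akibae was 221 in Nijisseiki (95% exact counting interval 39.2 to 8750.0) and 85.9 in SuCui NO.1 (15.0 to 3431). The edgeR test, with its own fitted folds of 153 and 61.0, gave adjusted p values of 0.022 and 0.016. The call against Nijisseiki was lost without any 1 Akibae library (0.078 to 0.11), without Nijisseiki replicate 3 (0.058), or with the pair alone (0.077), and that against SuCui NO.1 without Akibae replicate 1 (0.069) or 3 (0.054). Nijisseiki was also higher than CuiYu, by 4.73 ± 1.12 on the log2 scale (adjusted p = 0.017), a call that ended without Nijisseiki replicate 3 (0.054) or any 1 CuiYu library (0.058 to 0.078). SuCui NO.1 against CuiYu gave 3.41 ± 1.09 and missed the threshold (adjusted p = 0.054). It passed with DESeq2 (0.013) and without Nijisseiki replicate 1 (0.024) or SuCui NO.1 replicate 2 (0.036), and was 2.01 without SuCui NO.1 replicate 3 (0.22). The calls of gene350 are a description as well, as it too needed the Nijisseiki libraries to pass the filter on low counts.

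Locus 1237, for which the table gives a Swiss-Prot match to the enzyme but 0 domains, was highest in Akibae. Its mean over the 12 libraries, 0.964 CPM, was just under the 1 CPM set for giving library values, and it was chosen once its values were known; the next copy above this limit was gene350 at 1.93 CPM and the next below was gene352 at 0.301 CPM. In Akibae replicates 1, 2 and 3 it had 38, 30 and 66 reads, and in Nijisseiki it had 1, 4 and 9. It had 1, 0 and 1 in CuiYu and 0, 1 and 1 in SuCui NO.1. All Akibae libraries lay above all 9 others. The means were 3.42 ± 1.35 CPM in Akibae and 0.335 ± 0.275 in Nijisseiki (SD, n = 3 each, adjusted p = 0.0006 among the varieties).

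Set over SuCui NO.1, which had 2 reads, the pooled reads of Akibae gave a ratio of 67.9 (95% exact counting interval 18.4 to 566). Over CuiYu, also with 2 reads, the ratio was 71.1 (19.3 to 593). The edgeR test, with its own fitted folds of 57.5 and 59.5, gave an adjusted p of 0.0016 for both. Both calls held without any 1 library, at an adjusted p of at most 0.0077 and 0.011, and without the filter on low counts (0.0019 for both). The gene entered the test only through Akibae, the variety in which it was high. Akibae against Nijisseiki gave 3.29 ± 0.72 on the log2 scale (adjusted p = 0.040), and this call was lost, at 0.054 to 0.14, without any 1 library other than SuCui NO.1 replicate 1 (0.039), at 0.055 without the filter on low counts, and at 0.10 with the pair alone. Nijisseiki, with 14 reads against 2 in SuCui NO.1 and 2 in CuiYu, did not pass against either (adjusted p = 0.10 and 0.085, and 0.044 for both without Nijisseiki replicate 1).

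Gene352, on the minus strand, had too few reads for the test, and its library values are given because they were seen to lie mostly in Akibae. In Akibae replicates 1, 2 and 3 it had 24, 2 and 7 reads, and in Nijisseiki it had 0, 8 and 5. It had 0 in each CuiYu library and 0, 2 and 0 in SuCui NO.1. Akibae, with 33 reads, was at least 11.7-fold higher than CuiYu, against a floor of 3 reads over its 3 libraries, and against SuCui NO.1, with 2 reads, its ratio was 16.7 (95% exact counting interval 4.27 to 144). Of the Akibae reads, 24 came from 1 library, and the other 2 Akibae libraries lay within the range of Nijisseiki.

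**Figure D4:**
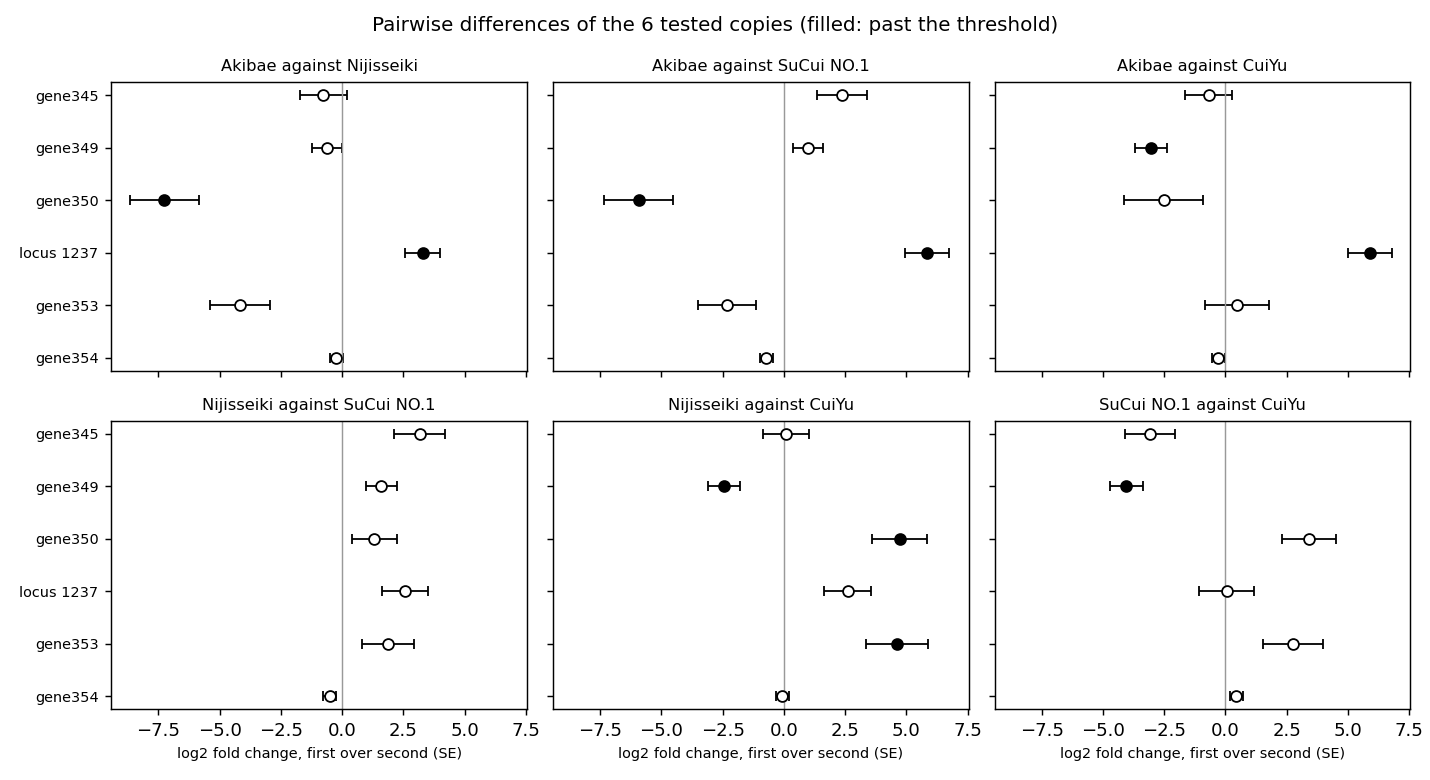
Log2 fold change (first variety over second, bars are SE) of the 6 tested copies in each pair of varieties, filled where the adjusted p was under 0.05. Gene349 is lower in each other variety than in CuiYu, and locus 1237 is higher in Akibae than in each other variety. Fitted values of gene350 against Akibae, and of locus 1237 against SuCui NO.1 and CuiYu, rest on 1 or 2 reads and depend on the fit's prior count.

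The calls pair by pair are a description for locus 1237, which entered the test through Akibae, and for gene353 and gene350, which entered it with the Nijisseiki libraries. Akibae against Nijisseiki called 1 copy higher in Akibae, locus 1237, and 1 lower, gene350, where 2.53% of all genes were called (0.962% higher and 1.57% lower). Akibae against SuCui NO.1 called the same 2 copies in the same directions (16.3% of all genes, 7.62% higher and 8.66% lower). Akibae against CuiYu called locus 1237 as higher and gene349 as lower (15.1% of all genes, 6.99% higher and 8.09% lower). These comparisons share the Akibae libraries. Nijisseiki against CuiYu called gene353 and gene350 as higher and gene349 as lower (15.4% of all genes, 8.03% higher and 7.37% lower). SuCui NO.1 against CuiYu, the pair of 1 harvest day, called gene349 as lower (17.4% of all genes, 8.86% higher and 8.58% lower). Nijisseiki against SuCui NO.1 called 0 copies with edgeR (12.4% of all genes, 6.68% higher and 5.76% lower). In this pair 3 copies had an unadjusted p under 0.05, and DESeq2 called 2, gene349 and gene345. The shares of all genes that belong to these 2 counts are not given here.

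Genes around the cluster were looked at for the same steps. Among the 5 tested genes on either side of the 102 kb stretch, 3 of 10 differed among the varieties, where 28.3% of all genes tested did. Gene343, which has no Swiss-Prot name and lies just beyond gene345, was higher in CuiYu, at 274 ± 36.8 CPM against 118 ± 14.3 in Akibae, 99.1 ± 14.3 in Nijisseiki and 119 ± 33.2 in SuCui NO.1 (SD, n = 3 each, adjusted p = 0.0048, 0.002 and 0.0054). Gene344, between them, stood at 5.19 ± 1.08 CPM in CuiYu, 3.40 ± 1.14 in SuCui NO.1, 1.59 ± 0.129 in Nijisseiki and 0.288 ± 0.254 in Akibae, and was lower in Akibae than in CuiYu (adjusted p = 0.0033) and SuCui NO.1 (0.0069). The third, a locus without a Swiss-Prot name that starts at 24620817, before the cluster, had its highest mean in Nijisseiki, at 1.19 ± 0.110 CPM. It stood at 0.245 ± 0.0917 in CuiYu (adjusted p = 0.026 against Nijisseiki) and 0.226 ± 0.0598 in SuCui NO.1 (0.025). In Akibae it stood at 0.645 ± 0.451 CPM and did not pass against Nijisseiki (0.52). This locus would not have passed the filter on low counts without the Nijisseiki libraries, so its calls, and its place among the 3, are a description. Inside the cluster 2 genes that are not copies were tested. One, a locus without a name that starts at 24684676, had 0 reads in CuiYu and means of 0.784 to 1.15 CPM elsewhere, and did not pass among the varieties (adjusted p = 0.19). The other, gene348, which starts next after gene349, did not pass either (adjusted p = 0.38), with means from 2.89 CPM in CuiYu to 4.50 CPM in Nijisseiki.

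Likeness to gene349 in pattern over the 12 libraries was measured by the root mean square difference of log2 CPM, each gene being centred on its mean. The search covered 18490 genes, fewer than the 26307 tested. Genes averaging under 1 CPM, or lacking a Swiss-Prot name, were left out, and some of them may lie closer. Among the genes compared, the 3 closest were gene24197 (LysM domain receptor-like kinase 3) on chromosome 3 at 0.65, gene35038 (Receptor like protein 30) on chromosome 9 at 0.71 and gene6066 (RHOMBOID-like protein 1) on chromosome 11 at 0.73. The median of the 18490 genes was 1.8. Gene24197 stood at 18.2 ± 1.30 CPM in CuiYu and at 1.72 ± 0.142 in Akibae, 1.14 ± 0.302 in Nijisseiki and 0.634 ± 0.0946 in SuCui NO.1 (SD, n = 3 each). Of the other copies, gene345 ranked 1706 by this measure, gene354 10706, gene353 17872 and gene350 17960. Locus 1237, at a mean of 0.964 CPM over the 12 libraries, and gene352, at 0.301 CPM, lay under the limit of 1 CPM and were not ranked.

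The phenols that the enzyme acts on are made by the enzymes of other genes. Of 32 tested genes for hydroxycinnamates and chlorogenic acid, 13 (40.6%) differed among the varieties, against 28.3% of all genes tested. Against CuiYu, 2 were higher and 5 lower in Akibae, 8 higher and 2 lower in Nijisseiki, and 4 higher and 4 lower in SuCui NO.1, where 15.1%, 15.4% and 17.4% of all genes were called in either direction, with median log2 fold changes of 0.54, 0.86 and 0.37 where all genes tested had 0.03, 0.05 and 0.06. These medians, and those of the flavan-3-ol and other oxidase lists, were the same with each gene at 0 reads in 1 variety of a pair set to its bound against a floor of 3 reads. At most 2 genes of a list were so set in a pair, and in some pairs 0 were. The thylakoid and copper lists had 0 such genes in each pair, so their medians could not change. The member with the highest level per length, gene780, is named trans-cinnamate 4-monooxygenase, the step that makes coumarate. It stood at 502 ± 99.3 CPM in CuiYu, 763 ± 185 in Akibae, 946 ± 153 in Nijisseiki and 902 ± 183 in SuCui NO.1 (SD, n = 3 each), and was lower in CuiYu than in Nijisseiki (adjusted p = 0.033) and SuCui NO.1 (0.042).

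Gene950 and gene40617, both named caffeoylshikimate esterase, which frees caffeate from its shikimate ester, had the smallest p values of that list and went in opposite directions. Gene950 stood at 60.6 ± 7.78 CPM in CuiYu and 86.9 ± 11.4 in SuCui NO.1 against 179 ± 13.3 in Nijisseiki and 209.5 ± 52.6 in Akibae (adjusted p = 0.00032 among the varieties). Gene40617 stood at 48.5 ± 4.58 CPM in CuiYu against 10.9 ± 4.20 in Akibae, 12.2 ± 4.72 in Nijisseiki and 15.7 ± 2.1 in SuCui NO.1 (adjusted p = 0.0012).

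Of 16 tested genes for flavan-3-ols, the building blocks of tannins, 6 (37.5%) differed among the varieties, against 28.3% of all genes. Without Nijisseiki replicate 1, 11 did, and the share of all genes in that fit is not given here. Against CuiYu, 2 were higher and 2 lower in Akibae, 4 higher and 1 lower in Nijisseiki, and 3 higher in SuCui NO.1 (15.1%, 15.4% and 17.4% of all genes were called), with medians of 0.79, 1.66 and 1.66. Gene13320 (leucoanthocyanidin dioxygenase), the highest per length, varied too much within varieties to pass among them (adjusted p = 0.070), at 279 ± 316 CPM in Nijisseiki and 9.59 ± 11.1 in CuiYu, the pair that passed (adjusted p = 0.042). Gene5036 (anthocyanidin reductase), the step that makes epicatechin, stood at 26.3 ± 4.48 CPM in SuCui NO.1 and 9.36 ± 1.67 in CuiYu against 0.312 ± 0.208 in Akibae and 0.429 ± 0.434 in Nijisseiki (adjusted p = 0.00019 among the varieties). Gene6629 (dihydroflavonol 4-reductase) had 0 reads in Akibae and stood at 1.35 ± 0.321 CPM in SuCui NO.1 (adjusted p = 0.00068 for this pair and 0.00093 among the varieties).

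The route of the protein into the thylakoid lumen was represented by 12 genes, all tested, of which 4 (33.3%) differed among the varieties, close to the 28.3% of all genes. Without Akibae replicate 1 or 2 or SuCui NO.1 replicate 1, 2 did in each case, and the share of all genes in those fits is not given here. Against CuiYu, 1 was higher and 1 lower in Akibae, the same counts held in Nijisseiki, and 2 were higher in SuCui NO.1, which is 16.7% in each pair and near the 15.1%, 15.4% and 17.4% of all genes, with medians of 0.10, 0.17 and 0.79. Gene1012 (TATC), the core of the twin-arginine translocase that carries folded proteins into the lumen, was the highest per length and did not pass (adjusted p = 0.16), at means of 48.6 ± 3.0 CPM in CuiYu to 85.0 ± 33.3 in SuCui NO.1. Gene14717 (TATA), another subunit, was lower in CuiYu, at 12.9 ± 1.24 CPM, than in SuCui NO.1, at 43.9 ± 13.1 (adjusted p = 0.003). Gene7479 (chloroplast processing peptidase) stood at 14.6 ± 4.85 CPM in SuCui NO.1 and 7.99 ± 0.648 in CuiYu against 1.47 ± 0.474 in Nijisseiki and 0.591 ± 0.108 in Akibae (adjusted p = 2.7e-05 among the varieties).

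Copper reaches the enzyme through transporters and chaperones. Of 21 tested genes of copper supply 10 (47.6%) differed among the varieties, against 28.3% of all genes. Against CuiYu, 3 were higher and 2 lower in Akibae, 4 higher and 3 lower in Nijisseiki, and 3 higher and 2 lower in SuCui NO.1, or 23.8%, 33.3% and 23.8% against 15.1%, 15.4% and 17.4% of all genes, with medians of -0.11, 0.08 and 0.24. Gene29168 (copper transport protein CCH), a cytosolic copper chaperone, had the highest level per length and its lowest mean in CuiYu, at 147 ± 9.11 CPM against 227 ± 26.5 in Akibae (adjusted p = 0.027) and 329.7 ± 58.5 in Nijisseiki (0.0012), while SuCui NO.1, at 195 ± 6.57, did not pass against it (0.11). Gene21735 (copper-transporting ATPase HMA5), a copper exporter of plant cells, was higher in CuiYu, at 15.7 ± 2.80 CPM, than in the other varieties, at 6.39 to 7.43 CPM on average (adjusted p = 0.0027 to 0.0065). Gene32590 (copper-transporting ATPase RAN1), which loads copper into ethylene receptors, stood at 25.4 ± 6.62 CPM in SuCui NO.1 and at 7.35 to 9.32 CPM on average elsewhere (adjusted p = 0.0019 among the varieties).

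Other enzymes that oxidise phenols or ascorbate, the laccases, peroxidases and ascorbate oxidases, were mostly not tested for lack of reads: 42 of 153 were, and 7 of these (16.7%) differed among the varieties, a smaller share than the 28.3% of all genes. Against CuiYu, 3 were higher and 2 lower in Akibae, 2 higher and 1 lower in Nijisseiki, and 1 higher and 2 lower in SuCui NO.1, or 11.9%, 7.14% and 7.14% against 15.1%, 15.4% and 17.4% of all genes, with medians of 1.51, 0.44 and 0.72. Gene9066 (peroxidase 42), the highest per length, stood at 7334 ± 2759 CPM in CuiYu, 2258 ± 52.3 in Akibae, 2428 ± 1399 in Nijisseiki and 1206 ± 1035 in SuCui NO.1, and was called only between SuCui NO.1 and CuiYu among the pairs (adjusted p = 0.033). Gene7199 (putative laccase-9) had its highest level in Akibae, at 19.6 ± 0.191 CPM against 1.06 ± 0.485 in CuiYu. Gene2397 (peroxidase 15) had 0 reads in Akibae and stood at 2.52 ± 2.86 CPM in CuiYu (adjusted p = 0.014 among the varieties). It would not have passed the filter on low counts without the CuiYu libraries, where its mean was highest, so this call is a description.

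Markers of the tissues in the sample were summed in the same libraries. The summed level of 21 skin epidermis genes was 11.6 to 21.3 CPM in Akibae, 29.2 to 122 in Nijisseiki, 64.9 to 88.0 in SuCui NO.1 and, highest, 187 to 215 in CuiYu, with 12, 6, 5 and 4 of them at 0 reads. Of its 12 tested genes, 10 differed among the varieties (83.3%, against 28.3% of all genes). The list holds homeobox regulators of the epidermis and genes of cuticular wax. The summed level of 68 genes of green plastids was 1284 to 3013 CPM in SuCui NO.1, 1260.4 to 1599 in CuiYu, 750.0 to 2018 in Nijisseiki and 462 to 982 in Akibae, with 6 to 8 members at 0 reads, and 20 of 58 tested genes (34.5%) differed. The 11 genes of stone cells and xylem summed to at most 1.58 CPM in any library, and none had enough reads to be tested. The 14 phloem genes summed to 34.0 to 205 CPM, with ranges that overlapped between all varieties, and 2 of 7 tested genes (28.6%) differed. Gene349 was highest in the variety with the highest epidermis sum, while its means in SuCui NO.1 and Akibae, where the epidermis sum was lowest, were 336 and 672 CPM. The part of tissue make-up in the level of any copy was not tested, and in bulk skin fewer cells of a type and less RNA per cell cannot be told apart.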

How the data were processed

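Fruit skin RNA of 4 pear varieties was sequenced in 12 libraries. Per the labels' protocols, CTAB was used to extract RNA and an NEB Next Ultra kit to build libraries. Per the file headers, the authors deposited a raw read count and an FPKM value for each gene and library. No source used here gives the aligner, counting tool, strand setting or genome build. FPKM values deposited by the authors were used only to compare the order of the copies.

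The filter on low counts, filterByExpr grouped by variety, left 26307 of 43732 genes. Counts were scaled by TMM and fitted with glmQLFit of edgeR 4.0.16 in R 4.3.3, with 1 mean per variety over all 12 libraries, and tested with glmQLFTest among the 4 varieties and in the 6 pairs. The SE is the log2 fold change divided by the root of F. The fit was tested on simulated data. Alternatives were DESeq2 1.42.0, other filters on low counts, the replicate number as a block, each library left out, and the 2 varieties of a pair alone. Depth was 11981445 to 15136559 counts per library, a floor of 3 reads over the 3 libraries of a variety being at most 0.0772 CPM.

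Library values are given for copies with a mean of at least 1 CPM, and for locus 1237 and gene352, chosen once their values were known. Same-numbered libraries had deviations correlated over 0.1 in all 3 pairs only between Nijisseiki and SuCui NO.1 (correlations 0.369, 0.362 and 0.196). The labels do not pair the samples, and the main fit held no block for the replicate number. The block was run only as an alternative, over all 12 libraries at once. From each list of related genes, the member with the highest level per length and the 2 with the smallest p among the varieties are named. Tissue lists were matched to Swiss-Prot names. The members and lists were chosen with earlier results of these data known. No reference sequence was used here.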

Additional observations from a re-analysis of the deposited data

How the results depend on the processing

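Calls of single copies moved with the setting. Of the 2 copies called in Akibae against Nijisseiki, 1 was called without the filter on low counts, 1 with a mean of at least 1 CPM required, 0 with the pair alone, and 0 to 2 with 1 library left out. In Akibae against SuCui NO.1 (2 called) it was 1 with a mean of at least 1 CPM, 1 with the pair alone and 1 to 3 with a library left out, and in Akibae against CuiYu (2 called) 1 with a mean of at least 1 CPM and 1 to 2 with a library left out. The mean of at least 1 CPM removes locus 1237 from the test. In Nijisseiki against SuCui NO.1 (0 called) DESeq2 called 2 and leaving out a library gave 0 to 2. In Nijisseiki against CuiYu (3 called) leaving out a library gave 0 to 3. In SuCui NO.1 against CuiYu (1 called) DESeq2 called 3, the pair alone 2 and a library left out 1 to 3. Among the 4 varieties (4 called) it was 3 to 5 under every alternative run. The share of all genes called under each alternative is not given here, so these counts are a description. Causes were not tested.

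Of the 18 same-numbered pairs of libraries, 5 had correlated deviations over 0.1 (range -0.218 to 0.369), and 3 of these were the 3 pairs of Nijisseiki and SuCui NO.1. In that comparison the replicate block changed no call (0 copies called with it and without it). In no other comparison were all 3 correlations over 0.1, and the labels pair no samples. With the replicate block, SuCui NO.1 against CuiYu called 2 copies, gene345 being added (adjusted p = 0.044). Under the block the sign of gene345 changed in Akibae against Nijisseiki (to 0.13) and in Nijisseiki against CuiYu (to -0.56).

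Log2 differences that changed sign without 1 library were not past the threshold in either fit. With a library left out, gene349 ran from -1.04 to 0.62 and gene345 from -1.33 to 1.04 in Akibae against Nijisseiki, the highest of both without Nijisseiki replicate 2. In Nijisseiki against CuiYu gene345 ran from -1.72, without Nijisseiki replicate 2, to 0.64, and was -0.07 without CuiYu replicate 3, and gene354 ran from -0.18 to 0.12, being above 0 without Nijisseiki replicate 2 or CuiYu replicate 1 (0.10). Gene353 in Akibae against CuiYu ran from -0.04, without Akibae replicate 1, to 1.56. Locus 1237 in SuCui NO.1 against CuiYu ran from -0.44, without CuiYu replicate 2, to 0.52, and was -0.28 and -0.25 without SuCui NO.1 replicates 2 and 3. At this depth gene352 and locus 1237 had 2 or fewer reads in each of SuCui NO.1 and CuiYu, and gene350 had 1 in Akibae, so their ratios have wide counting intervals.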

Other observations

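In each of the 4 varieties the library with the highest level of gene353 was the one with the lowest level of gene349. In Nijisseiki this was replicate 3, with 139 reads of gene353 and 295 CPM of gene349, and in SuCui NO.1 replicate 3, with 57 reads and 192 CPM. In CuiYu it was replicate 3, with 7 reads and 4217 CPM, and in Akibae replicate 1, with 7 reads and 606 CPM. This was seen in the values and was not tested, and the orders of gene353 rest on 7, 6 and 0 reads in Akibae and 2, 1 and 7 in CuiYu. Gene350 was likewise highest in replicate 3 of Nijisseiki (143 reads) and of SuCui NO.1 (67 reads). It did not follow in CuiYu, where replicate 1 was highest for both gene350 (4 reads) and gene349 (6276 CPM). Nor did it in Akibae, where its 1 read was in replicate 2. Together gene353 and gene350 reached 19.7 CPM in Nijisseiki replicate 3, the highest of the 12 libraries, and 0.151 to 0.737 CPM in CuiYu.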
